A study of Mus musculus with 14 samples.

Results

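Livers of male Abcb11-/- mice (Abcb11M, n = 3) were compared with non-tumour liver tissue of female Abcb11-/- mice (NTF, n = 3), across the genes of the autosomes and of the mitochondrial genome. The comparison used 6 of the 14 libraries of the series and 17336 genes with enough reads to be tested, out of 50262 autosomal and mitochondrial genes and 54532 genes in the whole count table. Genes of the X and Y chromosomes were left out of the results; the Y-linked Ddx3y served to check the labelled sexes. Abcb11 encodes the bile salt export pump, the ATP-driven carrier that moves conjugated bile acids out of hepatocytes, and both groups lack a working copy. All mice were C57BL/6J, 52 weeks old, and total RNA was taken from frozen liver; the series text gives 3 mice a group. The wild-type livers used for a second comparison came from males (WTM, n = 3) and females (WTF, n = 2, numbers 2 and 3) of the same strain and age. The male knockout samples are described only as liver tissue, whereas the female ones are the non-tumour tissue of animals whose tumour tissue was sequenced separately. Sex and the way the tissue was taken therefore changed together between the knockout groups and cannot be told apart. The labels do not give the extent of the deletion.

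The transcripts of mouse liver differ strongly between the sexes. Growth hormone is released in pulses in males and almost continuously in females, and its receptor acts in hepatocytes through the kinase JAK2 and the transcription factor STAT5B; the repressors BCL6, favoured in males, and CUX2, favoured in females, act on the same genes. Cytochromes P450, sulfotransferases and the secreted, pheromone-carrying major urinary proteins (MUPs) are the classic outputs, and several of the same enzymes hydroxylate or sulfate steroids and bile acids.

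Promoters of the genes that differed are shown first, because binding motifs of the factors just named can be read in them. RefSeq promoter windows (build GRCm38.p6, 250 bases before to 50 bases after the start) were found for 22 of the 32 genes higher in knockout males and 21 of the 32 genes lower. The motif TTCNNNGAA is of the kind bound by STAT5 and BCL6. At least 1 window held it in 4 of 22 higher genes (18.2%) and in 1 of 21 lower genes (4.76%). The share was 9.55% of all 27025 genes with a window and 8.53% of the 11742 tested genes with one. The motif ATTGATTN, read on both strands like the first, is of the kind bound by HNF6 and CUX2. At least 1 window held it in 6 of 22 higher genes (27.3%) and in 1 of 21 lower genes (4.76%). The share was 3.26% of all genes with a window and 2.08% of the tested ones. These shares are a description with no test, and a match is not evidence of a bound site. Of the 6 higher genes with ATTGATTN, 3 belong to the MUP family (Mup10, Mup11 and Mup21). The others were Arsa, Gm30262 and Sult2a8. The stretch between 200 and 51 bases before the start, read 5′ to 3′ on the gene's strand with the motif matches in capitals, is given for a gene higher in knockout males with 2 STAT5-type matches (Keg1, chr19:12695590-12695739, plus strand), for a gene with both motifs side by side (Arsa, chr15:89477475-89477624, minus strand) and for a MUP gene (Mup11, chr4:60662446-60662595, minus strand).
Keg1: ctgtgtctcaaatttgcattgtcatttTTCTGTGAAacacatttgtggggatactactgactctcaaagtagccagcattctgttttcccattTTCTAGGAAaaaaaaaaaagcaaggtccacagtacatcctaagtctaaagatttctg
Arsa: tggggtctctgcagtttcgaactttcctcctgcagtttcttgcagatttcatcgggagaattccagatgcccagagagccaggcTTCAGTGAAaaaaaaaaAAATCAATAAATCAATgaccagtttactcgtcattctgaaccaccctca
Mup11: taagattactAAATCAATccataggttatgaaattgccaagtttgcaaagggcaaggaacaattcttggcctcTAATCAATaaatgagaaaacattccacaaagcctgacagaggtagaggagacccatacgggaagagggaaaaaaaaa
The first bases of the Keg1 matches lie 173 and 107 bases before the start. In Arsa the STAT5-type match begins 116 bases before the start, and 2 ATTGATTN matches follow at 99 and 91 bases. In Mup11 the ATTGATTN matches begin 190 and 127 bases before the start. Keg1 and Arsa were higher in all 3 knockout males than in any NTF liver, as was Mup11. Arsa, which encodes the lysosomal enzyme arylsulfatase A, had 37.0, 30.1 and 42.9 CPM in knockout males, against 14.1, 9.20 and 5.70 CPM in NTF livers. Its log2 fold change was 1.93 (edgeR adjusted p = 0.0207). That adjusted p stayed under 0.05 in 2 of 6 cases with 1 library left out (highest 0.1, without Abcb11M liver 3).

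The 6 libraries held 14774037 to 18847828 counts each (14745140 to 19480538 over all 14). Levels are CPM, counts scaled to the library's total and edgeR's TMM factor, differences are log2 fold changes of Abcb11M over NTF with their standard error (SE), and a gene was called when its adjusted p from edgeR's quasi-likelihood F test was under 0.05. The Y-linked Ddx3y had 759, 749 and 808 counts in the Abcb11M libraries and 0 in each NTF library, so the sexes match the labels. Hepatocyte markers as a list summed to 90347 to 91185 CPM in Abcb11M and 74531 to 121271 CPM in NTF livers. The mitochondrial share of counts was 35.7, 33.7 and 15.7% in the Abcb11M livers, against 19.1, 34.2 and 16.7% in NTF livers, and its part in the results was tested only as a covariate. Acute phase genes summed to 73306 CPM in NTF liver 1, against 18868 and 21449 CPM in the other NTF livers and 19774 to 26664 CPM in the Abcb11M livers. Lymphocyte and antigen presentation genes summed to 1978 CPM in Abcb11M liver 2, against 364 and 375 CPM in the other Abcb11M livers and 864 to 1100 CPM in NTF livers. Nothing in the labels says whether the livers were collected at the same hour.

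Abcb11 itself, the gene targeted in both groups, still gave reads: 76.5, 62.1 and 104 CPM in knockout males, against 21.1, 35.9 and 17.9 CPM in NTF livers. The groups did not overlap, and its log2 fold change was 1.69 ± 0.33 (SE; adjusted p = 0.0404). In wild-type livers, the level was 298 to 322 CPM in WTM and 270 and 489 CPM in WTF, above every knockout library. The male against female difference differed between genotypes by 1.99 ± 0.49 on the log2 scale (adjusted p = 0.0181). Gene counts do not say whether the reads left in the knockouts come from a functional transcript. The call in the knockouts held in 2 of 6 cases with 1 library left out (highest adjusted p 0.203, without Abcb11M liver 3). For the difference between genotypes the adjusted p was 0.162 without WTF liver 3.

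Between knockout males and NTF livers 64 genes were called, 32 higher and 32 lower, which is 0.369% of the genes tested (0.185% in each direction). Of these, 58 were protein-coding. The even split did not hold with every method, with 234 higher and 446 lower without a low-count filter and 161 higher and 279 lower with DESeq2. In all 64 genes the 3 male livers lay on one side of the 3 NTF livers; over all tested genes 9.37% had the males above without overlap and 10.4% below. The median log2 fold change of all tested genes was -0.01. At an unadjusted p under 0.05, 1683 genes passed. The 12 protein-coding genes with the largest fold change in each direction, at 5 CPM or more in the higher group, are plotted by library.

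**Figure D1:**
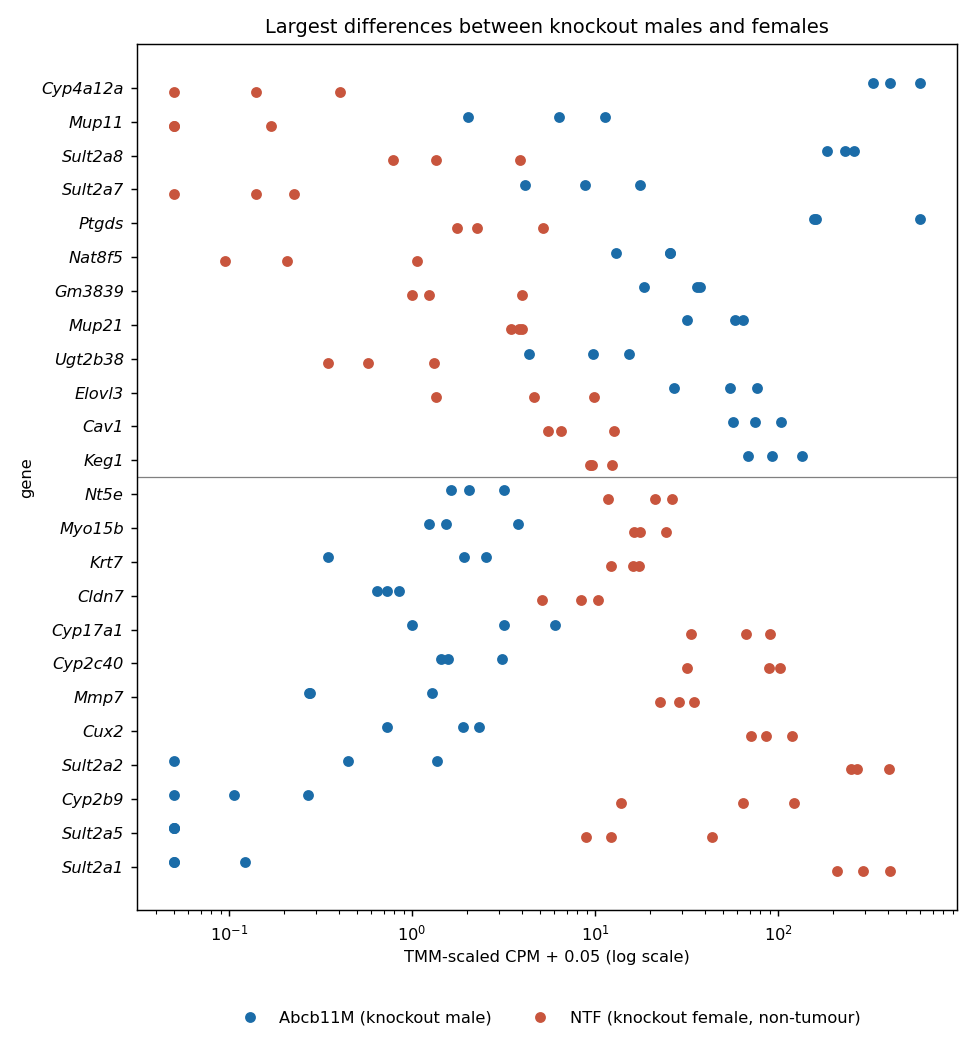
TMM-scaled CPM plus 0.05 (log scale) of the 12 genes with the largest increase (upper rows) and the 12 with the largest decrease (lower rows) in 3 Abcb11M and 3 NTF livers, 1 point a library. The groups do not overlap in any of these genes, and Sult2a1, Sult2a2, Sult2a5 and Cyp2b9 lie at or near 0 in the Abcb11M livers.

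The largest increase with reads in both groups was that of Cyp4a12a, a male-predominant P450 that hydroxylates fatty acids such as arachidonic acid. It had 411, 332 and 598 CPM in knockout males, against 0, 0.356 and 0.0904 CPM in NTF livers. Every male liver lay far above every female one, the log2 fold change was 11.57 ± 1.02 (adjusted p = 8.82e-05), and the call held with any library left out (adjusted p at most 0.00251). Its near copy Cyp4a12b had 286, 185 and 413 CPM in the males, against 0, 0 and 12.3 CPM in NTF livers, but was not called (adjusted p = 0.298); reads may be split between them. Ugt2b38, a UDP-glucuronosyltransferase, had 9.74, 4.31 and 15.2 CPM in the males, against 0.525, 0.297 and 1.27 CPM in NTF livers (3.78 ± 0.67, adjusted p = 0.0228). Elovl3, which elongates very long-chain fatty acids, had 54.4, 26.8 and 76.7 CPM in the males, against 4.56, 9.79 and 1.31 CPM in NTF livers (3.34 ± 0.59, adjusted p = 0.0266). With 1 library left out, the Ugt2b38 call held in 2 of 6 cases (highest adjusted p 0.174, without Abcb11M liver 3). That of Elovl3 held in 3 (0.145, without NTF liver 1).

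Keg1, a glycine N-acyltransferase-like gene, had 92.5, 68.5 and 135 CPM in knockout males, against 9.6, 12.3 and 9.31 CPM in NTF livers. Its log2 fold change of 3.25 ± 0.30 (adjusted p = 3.8e-05) held with any library left out. Nat8f5, an N-acetyltransferase-8 family member, had 25.7, 12.9 and 25.5 CPM in the males, against 0.157, 1.01 and 0.0452 CPM in NTF livers (5.77 ± 1.02, adjusted p = 0.0276). Gm3839 had 37.3, 18.4 and 36.2 CPM in the males, against 0.944, 1.19 and 3.93 CPM in NTF livers (3.90 ± 0.58, adjusted p = 0.00592). Outside metabolism, Ptgds, the lipocalin-type prostaglandin D synthase, had 161, 158 and 594 CPM in the males, against 2.2, 5.16 and 1.72 CPM in NTF livers (6.66 ± 1.02, adjusted p = 0.032). Cav1, the main structural protein of caveolae, had 74.8, 57 and 104 CPM in the males, against 6.45, 5.46 and 12.7 CPM in NTF livers (3.26 ± 0.43, adjusted p = 0.00256). In each of these genes the lowest male liver lay above the highest female one. With 1 library left out, Nat8f5 stayed called in 2 of 6 cases and Ptgds in 1. Their adjusted p was highest without NTF liver 1 (0.146 and 0.16).

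Members of 1 sulfotransferase family stood at both ends of the ranking. The Sult2a genes, which sulfate hydroxysteroids and, in mouse liver, bile acids, lie in a row on chromosome 7. In the files' order (GRCm38), Sult2a5 starts at 13623967, Sult2a2 at 13733505, Sult2a1 at 13796246, Sult2a4 at 13909676, Sult2a3 at 14067446, Sult2a8 at 14410686 and Sult2a7 at 14465051. The first 5 of the row were lower in knockout males and the last 2 higher, although Sult2a4 and Sult2a3 did not pass the test (adjusted p = 0.258 and 0.135).

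Sult2a1 had 0, 0.0731 and 0 CPM in knockout males, against 211, 292 and 409 CPM in NTF livers. Only 1 count in the 3 male libraries faced 17984 in the NTF libraries, a ratio whose counting interval (95%) runs from 2492 to 548599 (adjusted p = 0.00749 for the difference). Sult2a2 had 0, 1.32 and 0.396 CPM in the males, against 271, 252 and 406 CPM in NTF livers (-9.08 ± 1.25, adjusted p = 0.0216). Sult2a5 had no count in any male library and 12.1, 8.84 and 43.7 CPM in NTF livers, at least 39.6-fold lower in males against a floor of 3 counts a library (adjusted p = 0.0424). Sult2a8, reported to sulfate bile acids in mouse liver, went the other way, with 259, 186 and 231 CPM in knockout males, against 0.735, 3.86 and 1.31 CPM in NTF livers. Its log2 fold change of 6.85 ± 0.51 had the smallest adjusted p of all genes (3.75e-06) and held with any library left out. Sult2a7 had 8.78, 4.09 and 17.5 CPM in the males, against 0, 0.178 and 0.0904 CPM in NTF livers (6.75 ± 1.14, adjusted p = 0.0194).

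On the deposited length-scaled FPKM values, NTF livers held mainly Sult2a2 (391 ± 105 FPKM) and Sult2a1 (279 ± 90.9 FPKM), and knockout males held Sult2a8 (63.6 ± 10.7 FPKM) and Sult2a7 (7.26 ± 4.71 FPKM; SD, n = 3 for each). The Sult2a genes are near copies, so how reads were divided among them is uncertain. Of the 16 tested sulfotransferases 2 rose and 3 fell, where 0.185% of all tested genes were called in each direction. The other 11 did not pass. Those that fell were Sult2a1, Sult2a2 and Sult2a5. Sult2a5 and Sult2a2 lost their calls without Abcb11M liver 3 (adjusted p = 0.199 and 0.175), as did Sult2a1 (0.0997) and Sult2a7 (0.124). With 1 library left out, calls held in 2 of 6 cases for Sult2a5, Sult2a2 and Sult2a7 and in 4 for Sult2a1.

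**Figure D2:**
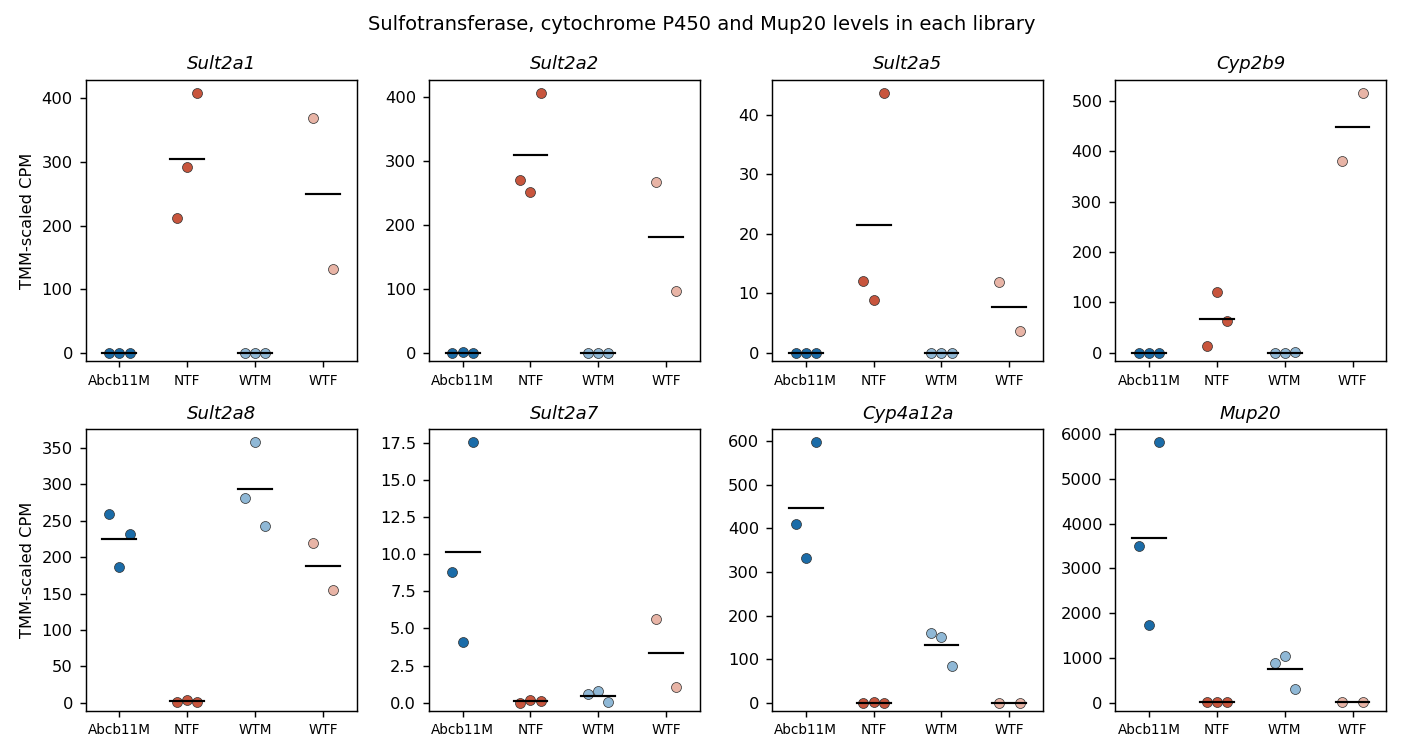
TMM-scaled CPM in each library (points) with the group mean (line) for 4 genes lower and 4 genes higher in Abcb11M than in NTF livers, with the wild-type groups WTM and WTF beside them. Sult2a1, Sult2a2, Sult2a5 and Cyp2b9 are near 0 in both male groups; Sult2a8 is near 0 in NTF livers only, at 186 to 259 CPM in Abcb11M, 242 to 358 CPM in WTM and 155 and 220 CPM in WTF livers.

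Beyond the sulfotransferases, genes lower in knockout males by the rule of the plot included 3 P450 genes and the repressor gene Cux2. Cyp2b9 had 0, 0.219 and 0.0565 CPM in knockout males, against 13.8, 122 and 64.1 CPM in NTF livers (-9.43 ± 1.48, adjusted p = 0.0228). Cyp2c40 had 3.05, 1.39 and 1.53 CPM in the males, against 89.5, 102 and 31.7 CPM in NTF livers (-5.23 ± 0.92, adjusted p = 0.0404). Cyp17a1, the steroid 17-hydroxylase, had 3.12, 0.95 and 5.99 CPM in the males, against 90.4, 67 and 33.5 CPM in NTF livers (-4.22 ± 0.74, adjusted p = 0.0318). All 3 separate the groups without overlap, with the NTF livers spread several-fold among themselves. Cux2, the female-favoured homeobox repressor of male-biased genes, had 1.86, 2.27 and 0.678 CPM in the males, against 85.4, 119 and 70.7 CPM in NTF livers. Its log2 fold change of -5.86 ± 0.59 (adjusted p = 0.000242) held with any library left out. Nt5e, the ecto-5'-nucleotidase that makes adenosine outside the cell, had 2.01, 3.14 and 1.58 CPM in the males, against 26.4, 21.1 and 11.7 CPM in NTF livers (-3.14 ± 0.53, adjusted p = 0.0216). The Cyp2b9 call was lost without Abcb11M liver 3 (adjusted p = 0.19), those of Cyp2c40 (0.234) and Nt5e (0.175) likewise, as was that of Cyp17a1 without Abcb11M liver 1 (0.184). With 1 library left out, Cyp2b9 stayed called in 4 of 6 cases, Cyp2c40 in 1, Nt5e in 3 and Cyp17a1 in 2.

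As groups, the sex-biased genes followed the sexes, though most did not pass the test singly. Of 24 tested male-biased liver genes 6 rose in knockout males and none fell (Cyp4a12a, Keg1, Nudt7, Ugt2b38, Elovl3 and C6), although Keg1 was lower in males than in females in wild type (-1.36, adjusted p = 0.007). Their median log2 fold change was 2.27, 22 were positive, and in 17 every male liver lay above every NTF liver. Of all tested genes, 0.185% were called higher and 9.37% lay above without overlap. The list summed to 3430, 2297 and 4587 CPM in the males, against 940, 886 and 834 CPM in NTF livers. Nudt7, a peroxisomal coenzyme A hydrolase, had 113, 64.9 and 151 CPM in the males, against 26.2, 23.5 and 16.5 CPM in NTF livers (2.31 ± 0.31, adjusted p = 0.00256). The C6 call held in 1 of 6 cases with 1 library left out (highest adjusted p 0.206, without Abcb11M liver 3).

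Of 38 tested female-biased genes 8 fell and none rose: Sult2a1, Sult2a2, Cyp2b9, Cyp2c40, Cyp17a1, Cux2, the peroxisomal fatty acid transporter Abcd2 and Nipal1. Their median was -2.43, 35 were negative, and in 24 every male liver lay below every NTF liver. Of all tested genes, 0.185% were called lower and 10.4% lay below without overlap. The list summed to 1490, 1390 and 1829 CPM in the males, against 3563, 3303 and 4448 CPM in NTF livers. Abcd2 and Nipal1 each stayed called in 1 of 6 cases with 1 library left out. Their adjusted p was highest without Abcb11M liver 1 (0.221 and 0.23). Both lists hold genes known for their sex bias in mouse liver and were drawn up with results of these data known, so their counts are not independent evidence of direction. Some members that did not pass varied widely among the NTF livers. Cyp2b13 had no count in any male library and 0.577, 64.4 and 23.4 CPM in NTF livers (adjusted p = 0.312), and Cyp2c69 had 1.71, 1.17 and 0.226 CPM in the males, against 86.5, 37 and 5.56 CPM in NTF livers (adjusted p = 0.181).

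**Figure D3:**
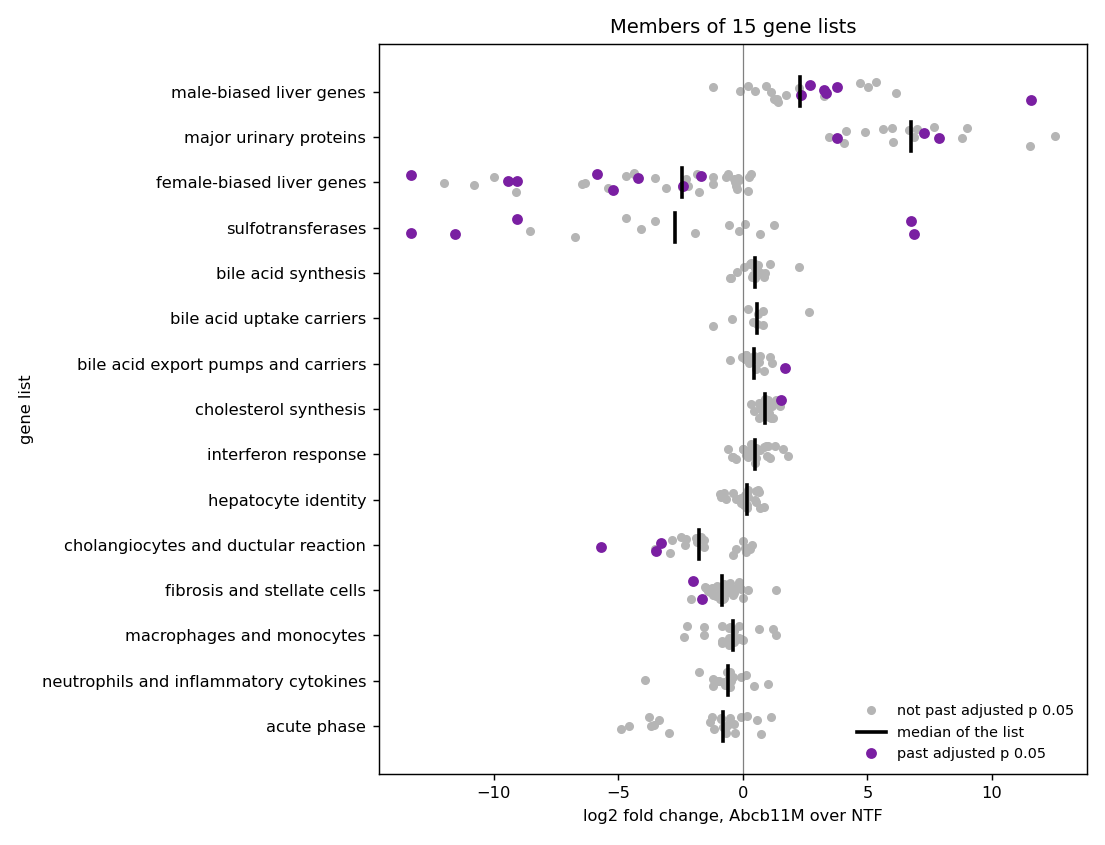
Log2 fold change of Abcb11M over NTF for the tested members of 15 gene lists; each point is a gene, purple where it passed adjusted p 0.05, and the bar is the list's median. The male-biased and MUP lists lie to the right of 0 with medians of 2.27 and 6.77, the female-biased, sulfotransferase and cholangiocyte lists to the left with medians of -2.43, -2.74 and -1.75.

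All 18 tested MUP genes were higher in knockout males in the fit, with a median log2 fold change of 6.77. Only Mup10, Mup11 and Mup21 passed the test, where 0.185% of all tested genes were called higher. The family summed to 4780, 1950 and 7210 CPM in the males, against 15.8, 44.7 and 9.04 CPM in NTF livers. Mup20, whose product darcin is the male pheromone that attracts females, made up most of it, with 3509, 1744 and 5815 CPM in the males, against 6.19, 14.3 and 4.39 CPM in NTF livers. Its adjusted p was 0.0675. Mup21 had 58.2, 31.7 and 64.3 CPM in the males, against 3.41, 3.8 and 3.93 CPM in NTF livers (3.79 ± 0.66, adjusted p = 0.0312). Mup11 had 11.2, 1.97 and 6.28 CPM in the males, against 0, 0.119 and 0 CPM in NTF livers; the 289 counts in males and 2 in NTF libraries give a ratio with a counting interval of 51.3 to 1552 (adjusted p = 0.026). Mup10 had 1.86, 0.877 and 2.2 CPM in the males and no count in NTF libraries, at least 4.93-fold higher (adjusted p = 0.0382). Abcb11M liver 2 was the lowest male in the family and NTF liver 2 the highest female. Most MUP genes are near copies of each other and the split of reads among them is uncertain. With 1 of the 6 libraries left out, Mup10, Mup11 and Mup21 each stayed called in only 1 of 6 cases. Their highest adjusted p was 0.16, 0.145 and 0.173.

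None of 18 genes of growth hormone and STAT5 signalling passed the test, and their median log2 fold change was -0.17. Every male liver lay above every NTF liver in 4 of the 18, Ghr, Stat5b and Igf1 among them, and below in 1. Of all tested genes, 9.37% lay above and 10.4% below without overlap. The growth hormone receptor Ghr had 162, 138 and 233 CPM in knockout males, against 102, 131 and 84.6 CPM in NTF livers (adjusted p = 0.351). Stat5b, the factor that carries the pulse signal, had 73, 75.4 and 64.2 CPM in the males, against 49.1, 49.8 and 51.3 CPM in NTF livers (adjusted p = 0.392), and Igf1, the main secreted mediator of growth hormone, had 958, 848 and 843 CPM in the males, against 809, 642 and 225 CPM in NTF livers (adjusted p = 0.713). Of 18 transcription factors tied to liver sex bias only Cux2 passed. Bcl6 had 35.8, 24.1 and 17 CPM in the males, against 7.97, 11.2 and 11.3 CPM in NTF livers, apart without overlap but not past the threshold (1.33 ± 0.41, adjusted p = 0.211).

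Few genes of bile acid handling passed the test between the knockout groups, although the sums of synthesis and export genes lay apart. Synthesis genes summed to 5433, 5045 and 6801 CPM in knockout males, against 3569, 3751 and 3527 CPM in NTF livers. Export pumps and carriers, Abcb11 included, summed to 2362, 2026 and 2142 CPM in the males, against 1212, 1527 and 1855 CPM in NTF livers. Every male liver lay above every NTF liver in 9 of 18 tested synthesis genes, 5 of 15 export genes and 3 of 9 uptake carriers, where 9.37% of all tested genes did so, and below in 0, 1 and 1. By the test of single genes, none of 18 tested synthesis genes, 9 uptake carriers or 10 sensing genes passed the test, with medians of 0.48, 0.55 and 0.11, and Abcb11 was the only one of 15 export genes to pass (median 0.46). Cyp7a1, the rate-limiting enzyme of bile acid synthesis, had 164, 194 and 170 CPM in knockout males, against 104, 236 and 167 CPM in NTF livers (0.06 ± 0.56, adjusted p = 0.998). Cyp7b1, of the alternative pathway, had 35, 15.8 and 67.7 CPM in the males, against 8.03, 6.11 and 11 CPM in NTF livers (adjusted p = 0.203). Slco1a1, an uptake carrier that is normally far higher in male mice, had 20.4, 12.9 and 9.55 CPM in knockout males, against 13.6, 10.5 and 12.9 CPM in NTF livers, an overlapping range (0.21 ± 0.42, adjusted p = 0.965). Abcb4, the phosphatidylcholine translocator, had 453, 482 and 432 CPM in the males, against 261, 228 and 278 CPM in NTF livers (adjusted p = 0.164). Cyp3a11, the main bile acid-hydroxylating P450 of this family, was at 6159, 3511 and 12851 CPM in the males and 5959, 4837 and 6874 CPM in NTF livers (adjusted p = 0.94). These p-values do not show that the groups were alike: the common biological coefficient of variation over all libraries was 0.442, which limits what 3 against 3 livers can show.

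Some genes of duct epithelium and matrix were lower in knockout males. Of 22 tested cholangiocyte and ductular reaction genes 3 fell and none rose, with a median log2 fold change of -1.75, and in 13 every male liver lay below every NTF liver. Of all tested genes, 0.185% were called lower and 10.4% lay below without overlap. Mmp7, the matrix protease matrilysin made by biliary epithelium, had 0.223, 1.24 and 0.226 CPM in knockout males, against 28.6, 22.5 and 34.7 CPM in NTF livers. Its log2 fold change of -5.68 ± 0.76 (adjusted p = 0.00432) held with any library left out, at most at 0.0497. Krt7, a keratin of bile ducts, had 0.298, 2.48 and 1.87 CPM in the males, against 16, 17.4 and 12.2 CPM in NTF livers (-3.28 ± 0.59, adjusted p = 0.0265). Cldn7, an epithelial tight junction protein, had 0.595, 0.804 and 0.678 CPM in the males, against 5.09, 8.37 and 10.3 CPM in NTF livers (-3.50 ± 0.62, adjusted p = 0.0228). The duct keratin Krt19 had 1.12, 6.14 and 1.64 CPM in the males, against 29, 21.2 and 16.6 CPM in NTF livers, but did not pass (adjusted p = 0.0783). Abcb11M liver 2 stood closer to the NTF livers in these genes: the progenitor and duct marker Epcam was at 0.595, 7.16 and 1.41 CPM in the males, against 11.3, 9.49 and 25.2 CPM in NTF livers. In whole liver, fewer cells of a type and less RNA per cell cannot be told apart. The list as a whole summed to 931, 1182 and 1148 CPM in the males, against 1440, 1107 and 1840 CPM in NTF livers, and 1 or 2 of its 22 members were at 0 in each male library and none in NTF libraries. Krt7 was not called without Abcb11M liver 3 (adjusted p = 0.148), nor Cldn7 without Abcb11M liver 1 (0.152). With 1 library left out, Krt7 stayed called in 2 of 6 cases and Cldn7 in 3.

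Of 32 fibrosis and stellate cell genes 2 fell (0.185% of all tested genes did), with a median of -0.85 and 29 of 32 negative. They were Ctgf, a matricellular growth factor modulator with 7.36, 5.63 and 4.92 CPM in knockout males, against 26, 16.4 and 29.8 CPM in NTF livers (-2.01 ± 0.37, adjusted p = 0.026), and the metalloprotease inhibitor Timp2, with 6.69, 9.72 and 8.14 CPM in the males, against 19.9, 17.4 and 38.7 CPM in NTF livers (-1.63 ± 0.31, adjusted p = 0.0318). The collagens did not pass: Col1a1 had 6.25, 27.8 and 5.77 CPM in the males, against 19.7, 31.4 and 8.95 CPM in NTF livers (adjusted p = 0.95). The summed level of the fibrosis list was 781, 1040 and 910 CPM in the males, against 1469, 1032 and 1156 CPM in NTF livers. None of 23 macrophage genes passed, although their sum was lower in each male (596, 642 and 548 CPM) than in each NTF liver (1094, 1133 and 926 CPM). Ctgf was not called without Abcb11M liver 3 (adjusted p = 0.175) nor Timp2 without Abcb11M liver 1 (0.208). With 1 library left out, Ctgf stayed called in 1 of 6 cases and Timp2 in 2.

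**Figure D4:**
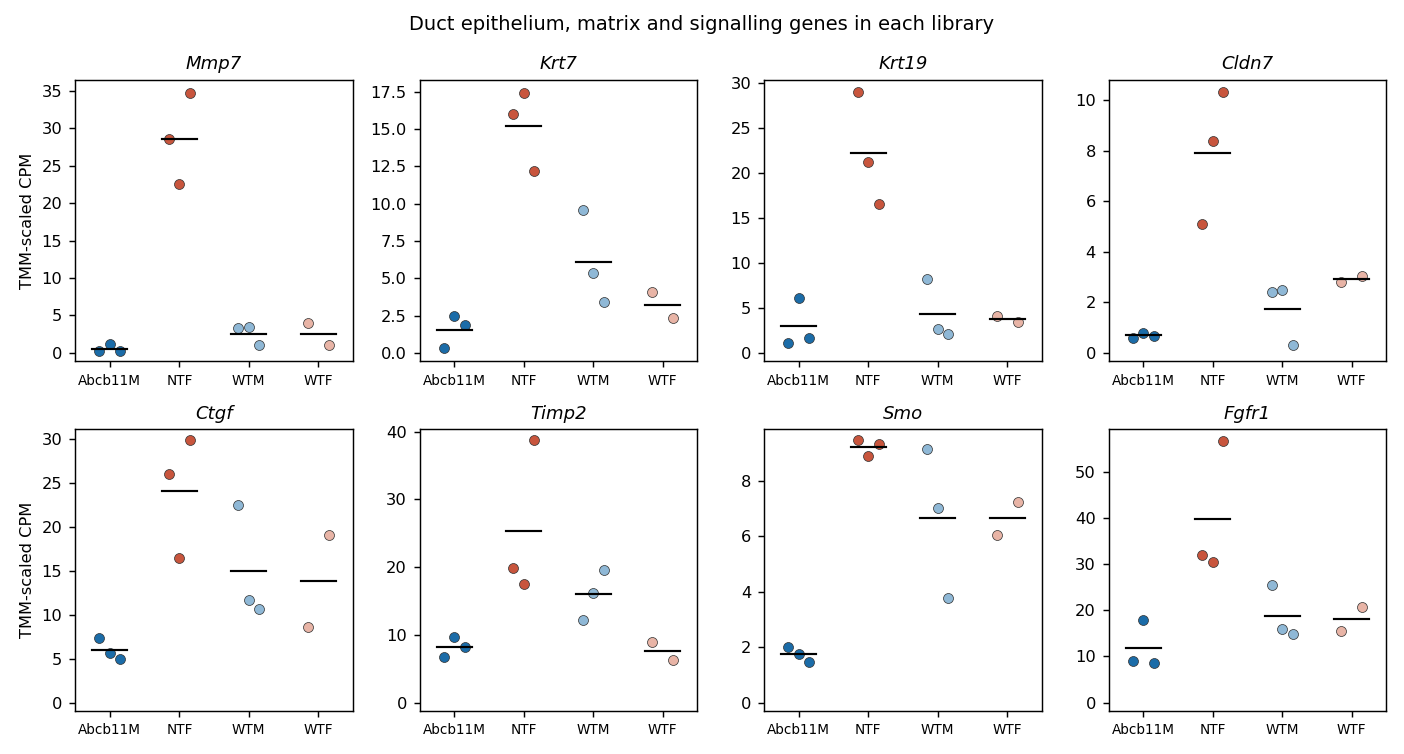
TMM-scaled CPM in each library (points) with the group mean (line) of 8 duct, matrix and signalling genes. The 3 NTF livers lie above the 3 Abcb11M livers in every panel; the WTM and WTF livers lie at 1.01 to 3.44 CPM and at 1.11 and 3.93 CPM of Mmp7, far below the 22.5 to 34.7 CPM of NTF livers.

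The signalling genes Smo, Fgfr1 and Src, which lie outside the lists and were chosen after their values were seen, were also lower. Smo, which carries the Hedgehog signal into the cell, had 2.01, 1.75 and 1.47 CPM in knockout males, against 9.44, 8.9 and 9.31 CPM in NTF livers (-2.40 ± 0.34, adjusted p = 0.00432), with an adjusted p of at most 0.0451 when any library was left out. The receptor Fgfr1 had 9, 17.8 and 8.59 CPM in the males, against 32, 30.5 and 56.7 CPM in NTF livers (-1.75 ± 0.34, adjusted p = 0.0402; 0.25 without Abcb11M liver 1). Src, a tyrosine kinase, had 2.31, 3.14 and 2.15 CPM in the males, against 8.81, 9.26 and 6.1 CPM in NTF livers (adjusted p = 0.0479; 0.249 without Abcb11M liver 1). Phlda3, a p53 target that restrains AKT, was the 1 member of 19 tested p53 and growth arrest genes to pass, with 0.744, 1.1 and 0.848 CPM in the males, against 5.61, 3.2 and 5.61 CPM in NTF livers (adjusted p = 0.0402; 0.23 without Abcb11M liver 1). With 1 library left out, Fgfr1 stayed called in 2 of 6 cases, and Src and Phlda3 in 1 each. By the rule used for the plot, Myo15b, an unconventional myosin gene, completed the decreases with 1.49, 3.73 and 1.19 CPM in the males, against 17.5, 24.4 and 16.4 CPM in NTF livers (-3.19 ± 0.45, adjusted p = 0.00432).

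Among genes higher in knockout males and likewise chosen after their values were seen, Ces3b, a liver carboxylesterase, had 518, 535 and 544 CPM in those males, against 61.1, 120 and 66.6 CPM in NTF livers (2.69 ± 0.32, adjusted p = 0.000696). Il1rap, the accessory chain of the interleukin-1 receptor, had 124, 122 and 137 CPM in the males, against 37.6, 42.5 and 44.6 CPM in NTF livers (1.62 ± 0.20, adjusted p = 0.00121). The pseudogene Gm4956 had 46, 23.1 and 51.3 CPM in the males, against 2.62, 1.54 and 1.85 CPM in NTF livers (4.32 ± 0.40, adjusted p = 3.8e-05), and the noncoding transcript 1700028E10Rik had 68.7, 76.4 and 51.5 CPM in the males, against 5.46, 7.12 and 17.2 CPM in NTF livers (2.72 ± 0.40, adjusted p = 0.00618). The spread within each group was small in Il1rap, and in Ces3b it was small among the males only. The groups lay well apart in these genes. These 4 genes, with Cyp4a12a, Sult2a8, Keg1, Cav1, Nudt7, Gm3839, Cux2, Mmp7 and Smo, were the 13 of the 64 still called whichever of the 6 libraries was left out. The count of calls itself rested on single libraries: it was 13, 136 and 16 without Abcb11M livers 1, 2 and 3, and 20, 61 and 47 without NTF livers 1, 2 and 3.

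All 23 tested cholesterol synthesis genes were higher in knockout males in the fit, with a median log2 fold change of 0.89, but only Cyp51, lanosterol demethylase, passed the test. It had 124, 106 and 153 CPM in the males, against 28.4, 61.4 and 42.6 CPM in NTF livers (1.53 ± 0.31, adjusted p = 0.0424). With 1 library left out the call held in 2 of 6 cases (highest adjusted p 0.199, without Abcb11M liver 3). The list summed to 3114, 3375 and 2489 CPM in the males, against 801, 2483 and 1126 CPM in NTF livers, so NTF liver 2 came close to the males. No member passed among the lists of NRF2 and glutathione genes, lipogenesis, fatty acid oxidation, interferon response, urea cycle, pericentral genes, apolipoproteins, gluconeogenesis, ER stress, cell cycle, daily clock, immediate early response, acute phase, neutrophils, lymphocytes, endothelium, red cells, adipocytes, hepatocyte identity, oncofetal markers or mitochondrially encoded genes. Some of these lists still held genes whose groups did not overlap. Every male liver lay above every NTF liver in 10 of 26 interferon response genes and below in 1. The counts above and below were 8 and 2 of 28 fatty acid oxidation genes, and 0 and 7 of 19 immediate early genes. Of all tested genes, 9.37% lay above and 10.4% below without overlap. Over all lists, 28 of 699 tested distinct members were called, 13 higher and 15 lower, where 0.369% of all tested genes were called. Among the oncofetal markers, the imprinted growth RNA H19 had 0, 0.292 and 0.17 CPM in knockout males, against 25.3, 1.96 and 14.7 CPM in NTF livers (adjusted p = 0.121).

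The male against female difference was also measured in livers with a working Abcb11 gene, to see which differences are found without the deletion. This comparison shares no library with the first. Among the groups compared only NTF was labelled non-tumour tissue. A difference between both comparisons therefore cannot tell genotype apart from the way that tissue was taken. Between WTM and WTF livers 4017 genes were called, 23.2% of those tested (1236 higher, 7.13%, and 2781 lower, 16.0%). Of the 64 genes called in the knockouts, 25 were called in the same direction in wild type (39.1% of the 64, and 0.622% of the 4017), 4 in the opposite direction and 35 were not called. A test of the difference between both comparisons called 1902 genes (11.0% of those tested), with 1512 positive (8.72%) and 390 negative (2.25%). Among them were 33 of the 64. That test holds the same Abcb11M and NTF libraries by which the 64 were chosen, so this share is not independent of the choice. WTM liver 3 stood apart from the other wild-type livers: lymphocyte and antigen presentation genes summed to 13552 CPM there, against 167 and 150 CPM in the other WTM livers and 675 and 404 CPM in WTF livers. Cell cycle genes summed to 433 CPM in it, against 113 and 71.2 CPM in the other WTM livers, and hepatocyte identity genes to 35678 CPM, against 84013 and 69176 CPM. Without it 4641 genes were called in wild type and 2535 for the difference, 35 of the 64 among these, and 25 and 4 of the 64 were called in the same and the opposite direction. WTM livers had a count in 15308 to 17520 genes, fewer than the 18862 to 22414 of the knockout livers and the 21283 and 21675 of WTF livers. Their clock score (the mean log2 CPM of Dbp, Tef, the Per genes, Nr1d1, Nr1d2 and Ciart minus that of Arntl, Npas2, Clock and Nfil3, which run in opposite phase) was -1.87 to -1.42, against 1.27 and 1.73 in WTF livers, 2.70 to 3.45 in Abcb11M and -0.29 to 4.86 in NTF livers. With that score as a covariate, 1768 genes were called in wild type and 536 for the difference of the comparisons.

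**Figure D5:**
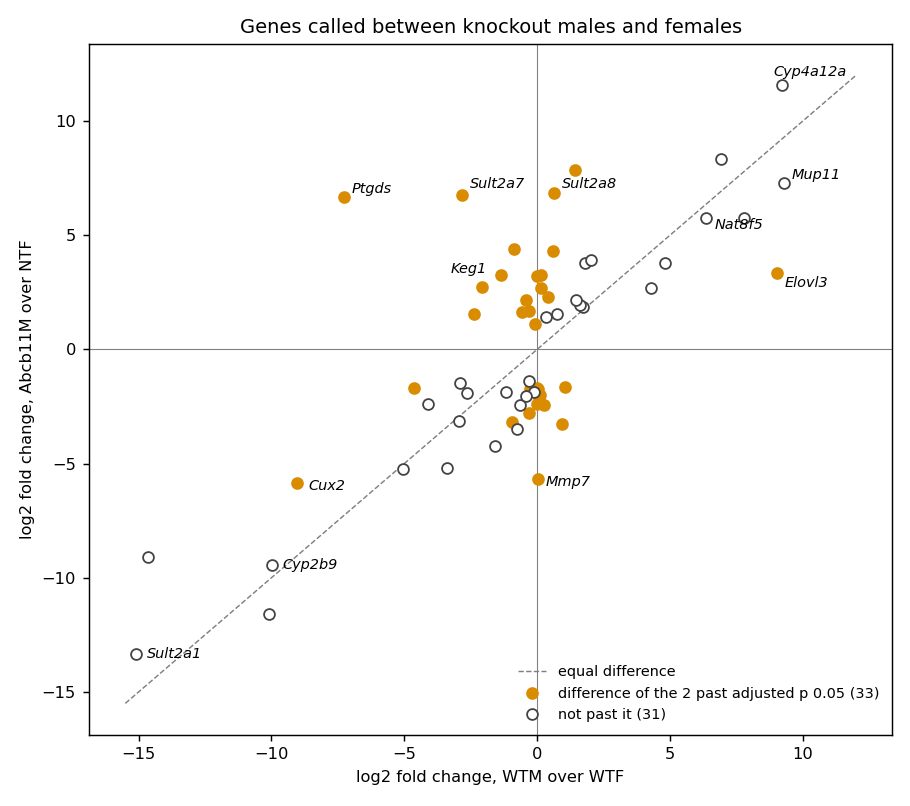
Log2 fold change of Abcb11M over NTF against that of WTM over WTF for the 64 genes called in the knockouts; filled points are the 33 in which the difference of both passed adjusted p 0.05. Cyp4a12a, Mup11, Cyp2b9 and Sult2a1 lie near the line of equal difference, Sult2a8, Sult2a7 and Mmp7 away from it.

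Several of the largest differences were found in both genotypes. Cyp4a12a had 160, 150 and 85.2 CPM in WTM, against 0.187 and 0.241 CPM in WTF livers, and its difference did not differ detectably between genotypes (2.37 ± 1.53, adjusted p = 0.335). Sult2a1, Sult2a2, Sult2a5, Cyp2b9, Cyp2c40, Cux2, Nt5e, Mup11, Mup21, Nat8f5, Gm3839 and Elovl3 were also called in the same direction in wild type. Cux2 and Elovl3 kept their direction with a smaller difference in the knockouts. Elovl3 was at 429, 503 and 267 CPM in WTM, against 0.748 and 0.771 CPM in WTF livers, a genotype difference of -5.68 ± 0.95 (adjusted p = 0.003). Cux2 was at 0, 0.286 and 0.404 CPM in WTM, against 159 and 97.3 CPM in WTF livers (3.16 ± 0.89, adjusted p = 0.0374; 0.122 without WTF liver 2). The MUP sum hides unequal members: Mup11 was at 554, 719 and 232 CPM in WTM, against 1.37 and 0.289 CPM in WTF livers, far above the 1.97 to 11.2 CPM of knockout males.

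In other genes the test of the difference passed with sexes that lay apart in the knockouts and closer together, or the other way round, in wild type. Sult2a8 was at 281, 358 and 242 CPM in WTM, against 220 and 155 CPM in WTF livers, near the 186 to 259 CPM of knockout males and far above NTF livers (6.21 ± 0.62, adjusted p = 0.000157). Keg1 had 6.08, 4.94 and 7.92 CPM in WTM, against 19.1 and 13.4 CPM in WTF livers, opposite to the knockouts (4.61 ± 0.43, adjusted p = 0.000122). Cav1 was at 3.43, 3.58 and 2.98 CPM in WTM, against 3.74 and 2.31 CPM in WTF livers (3.11 ± 0.63, adjusted p = 0.00705; 0.0681 with the clock score). Mmp7 had 3.3, 3.44 and 1.01 CPM in WTM, against 3.93 and 1.11 CPM in WTF livers (-5.72 ± 1.06, adjusted p = 0.00519), and Krt7 had 9.57, 5.37 and 3.43 CPM in WTM, against 4.05 and 2.31 CPM in WTF livers (-4.23 ± 0.87, adjusted p = 0.00799; 0.0704 without WTF liver 3). Every NTF liver lay above every wild-type liver in Mmp7 and Krt7. Of the knockout males, only Abcb11M liver 2 lay within the wild-type range in these genes, and the others lay below every wild-type liver.

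In other genes wild-type males and females lay further apart than the knockout groups, or apart in the other direction. Slco1a1 had 57.3, 117 and 79.9 CPM in WTM, against 10.6 and 16.5 CPM in WTF livers, and the genotype difference was -2.43 ± 0.64 (adjusted p = 0.0263). Cyp7a1 had 2.07, 10.7 and 5.95 CPM in WTM, against 437 and 197 CPM in WTF livers (5.72 ± 0.88, adjusted p = 0.00195). Ghr had 90, 81.5 and 62.2 CPM in WTM, against 436 and 323 CPM in WTF livers (3.03 ± 0.42, adjusted p = 0.000828), whereas its 138 to 233 CPM in knockout males lay above the 84.6 to 131 CPM of NTF livers. Without WTM liver 3 the test of the difference still passed for Slco1a1, Cyp7a1 and Ghr (adjusted p = 0.0243, 0.00573 and 0.00222). All 23 cholesterol synthesis genes were lower in WTM than in WTF in the fit (21 called, median -3.25, where 16.0% of all tested genes were called lower), opposite in sign to the knockouts, and all 23 passed the test of the genotype difference; 22 did without WTM liver 3 and 15 with the clock score as a covariate. Sqle, squalene epoxidase, had 2.65, 4.08 and 2.98 CPM in WTM, against 68.8 and 60.3 CPM in WTF livers, and 60.5, 66.9 and 49.6 CPM in Abcb11M, against 22.7, 45.9 and 28.2 CPM in NTF livers. Cyp7a1 and cholesterol synthesis both run on a daily rhythm, and the clock score of the wild-type sexes did not overlap. How much of these wild-type differences goes with the clock score was not tested. The score parts the wild-type sexes completely, so the covariate cannot separate it from sex there.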

How the data were processed

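Gene counts of whole-liver RNA were taken from the table the authors deposited for all libraries. Reads were aligned with HISAT2 2.0.5 and counted with featureCounts 1.5.0-p3 on GRCm38, per the submitters' processing notes; the strand setting is not given in the sources used here, so antisense and near-identical genes are uncertain. The deposited FPKM values, scaled by the authors for gene length and depth, were used only to compare levels between genes; the means of the authors' FPKM are over 3 libraries. Where nothing says that libraries came from separate mice beyond the statement of 3 mice a group, p-values measure the spread between these samples.

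The counts were fitted with edgeR 4.0.16 in R 4.3.3: TMM scaling, the default expression filter over the 5 groups, 1 quasi-likelihood model of all 14 libraries with robust dispersion, and 2-sided F tests with Benjamini-Hochberg adjustment over the 17874 genes tested. Of these, 526 lie on X or Y and 12 on unplaced scaffolds; they stay in the fit and out of every count, which leaves 17336. The SE was derived from the test, as the absolute log2 fold change over the root of F. Intervals and floors (95%, 3 counts) cover counting error only. At totals of 14774037 to 18847828 counts, 1 count is under 0.1 CPM. The reported model and tests were compared with DESeq2 1.42.0, limma 3.58.1, other scalings and filters, subsets of libraries and a replicate block, and with the mitochondrial share or the clock score as covariates, which were chosen after seeing the data.

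The 2 groups, and the 38 gene lists (724 distinct genes, 699 tested), were chosen with earlier results of these data known. Named genes are Abcb11, the 12 protein-coding genes with the largest change in each direction at 5 CPM or more in the higher group and without overlap, in each list the members past the threshold up to 4 (2 of the smallest p otherwise), up to 5 in each direction for the difference of the comparisons, any member of the MUP, growth hormone, transcription factor and bile acid lists, and others said to be chosen after their values were seen. Genes named outside these rules include Arsa, C6, Abcd2, Nipal1, Cyp4a12b, Cyp2b13, Cyp2c69, Cyp3a11, Krt19, Epcam, Col1a1, Sqle, Sult2a3 and Sult2a4. The tests were tried on simulated counts. The tumour libraries enter only the fit. It held no term for the animal, although NTF tissue came from animals whose tumour tissue was sequenced. Acute phase genes stood high in library 1 of both (73306 CPM in NTF, 61291 CPM in tumour tissue). Without the tumour libraries 88 genes were called between Abcb11M and NTF, 55 of them among the 64. A wild-type female of number 1 was not analysed here.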

Additional observations from a re-analysis of the deposited data

Results flagged for a closer look

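In the genes below the male against female difference itself differed between genotypes by edgeR's test of the difference of both comparisons, (Abcb11M minus NTF) minus (WTM minus WTF), on the log2 scale. Among these groups only NTF was labelled non-tumour tissue. The test therefore cannot tell genotype apart from the way the NTF tissue was taken. Among genes called in the knockouts, the difference was positive for Abcb11 (1.99), Sult2a8 (6.206), Sult2a7 (9.582), Ptgds (13.94), Cav1 (3.114), Keg1 (4.607) and Cux2 (3.162). It was negative for Elovl3 (-5.682), Mmp7 (-5.722), Krt7 (-4.226) and Myo15b (-2.245). Sult2a7 had 0.582, 0.787 and 0.0505 CPM in WTM, against 5.61 and 1.06 CPM in WTF livers, so its direction in the fit was opposite in the 2 genotypes. Of the 11 libraries left out 1 at a time, the difference still passed in 3 cases for Cux2 (highest adjusted p 0.122, without WTF liver 2), 5 for Myo15b (0.136, without WTF liver 2) and 8 for Abcb11 (0.162, without WTF liver 3). It passed in 10 for Ptgds (0.0964) and Krt7 (0.0704), both lost without WTF liver 3, and in 9 for Cdkn1a (0.102) and Tuba8 (0.103), both highest without WTF liver 2. The other 11 genes named here passed in all 11 cases, and all 18 passed without WTM liver 3, whose lymphocyte genes stood apart.

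Among protein-coding genes averaging 5 CPM or more in at least 1 of the 4 groups, with libraries of the sexes apart in at least 1 genotype, the largest positive differences were those of Ptgds and of Cyp3a16 (13.86), Cyp2g1 (11.29), 4933411K16Rik (10.75) and Ptp4a1 (10.61). All 4, and Ptgds, had no count in any WTM library, so these fitted values depend on the prior count and are no bound. Cyp3a16, a female-biased P450, had 0.744, 0.731 and 2.6 CPM in Abcb11M, against 2.26, 1.42 and 1.67 CPM in NTF livers, and 0 in each WTM liver, against 185 and 84.7 CPM in WTF livers. By the same limits the largest negative differences were those of Pdgfrl (-6.05), Mmp7 and Elovl3, followed by Tuba8 (-5.186) and Cdkn1a (-4.969). Cdkn1a, the p53-induced cell cycle inhibitor p21, had 3.79, 3.36 and 4.81 CPM in Abcb11M, against 59.1, 7.65 and 9.63 CPM in NTF livers, and 59.9, 52.9 and 44.4 CPM in WTM, against 5.3 and 15.9 CPM in WTF livers. WTM livers also had a count in fewer genes than any other group and a clock score apart from the rest. The part of either in these differences was not tested, because within wild type the score cannot be told apart from sex. With the clock score as a covariate, Sult2a7 (adjusted p = 0.101), Cav1 (0.0681), Cux2 (0.0576), Myo15b (0.153) and Tuba8 (0.0766) no longer passed.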

How the results depend on the processing

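The count of 64 genes between Abcb11M and NTF was 680 without a low-count filter (234 higher, 446 lower), 440 with DESeq2 (161 and 279), 678 with limma-voom (321 and 357) and 108 with the compared groups alone (59 and 49); the cause was not tested. It ranged between 13 and 136 with 1 library left out (136 without Abcb11M replicate 2, 43 higher and 93 lower; 13 without Abcb11M replicate 1, 16 without replicate 3, 20 without NTF replicate 1). Other scalings, a filter at 1 CPM, leaving out the tumour libraries or X and Y genes, and both covariates gave 57 to 88. Of the 24 genes of largest change, 16 were still called with the mitochondrial share as a covariate (lost were Mup11, Ptgds, Nat8f5, Elovl3, Sult2a5, Sult2a2, Cyp2c40 and Cyp17a1), 23 or 24 under every other scaling, filter, tool, covariate or choice of groups, and 7, 22 and 8 without Abcb11M replicates 1, 2 and 3 and 11, 17 and 17 without NTF replicates 1, 2 and 3. With RLE or upper-quartile scaling, all 18 MUP and all 23 cholesterol synthesis genes kept a positive log2 fold change, and 22 of 24 male-biased and 35 of 38 female-biased genes had the sign of their list, as in TMM scaling; 16 of 22 duct genes were negative with TMM and RLE and 17 with upper-quartile scaling. RLE scaling moved the median log2 fold change of all genes by 0.11 in wild-type livers and by -0.11 in the difference, and upper-quartile scaling by -0.07 between Abcb11M and NTF, 0.08 in wild-type livers and -0.16 in the difference.

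The wild-type count of 4017 was 1777 with the compared groups alone and 1768 with the clock score as a covariate, and 1253 to 4641 with 1 library left out (1253 without WTF replicate 3, 2227 without WTF replicate 2). The count of 1902 for the difference of both comparisons was 2954 with DESeq2, 3221 with limma-voom and 536 with the clock score. It was 564 to 2535 with 1 library left out (564 without WTF replicate 3, 864 without NTF replicate 1, 988 without WTF replicate 2). Its split into 1512 higher and 390 lower was 1224 and 601 with upper-quartile scaling and 1202 and 571 at 1 CPM. The 28 list members called were 140 without a filter, 81 with DESeq2, 95 with limma-voom, 18 with the mitochondrial share as a covariate, and 6 to 34 with 1 library left out (6 without Abcb11M replicate 1 or 3). Among uncalled genes, the log2 fold change of 4933411K16Rik was -0.00792 to 1.34 with 1 library left out (negative without NTF replicate 1), and that of Ptp4a1 -0.396 to 0.514 (negative at -0.0707 without NTF replicate 1 and at -0.396 without Abcb11M replicate 3).

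Deviations of same-numbered livers from their group means correlated at -0.0329, 0.322 and 0.387 over 9535 genes. Abcb11M livers 2 and 3 correlated best with the NTF liver of their own number, and liver 1 with NTF liver 2 (0.312). The deviations within a group sum to 0, so these values cannot decide whether the numbers pair the livers. With the replicate block 56 genes were called, 44 of them among the 64, and 18 of the 24.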
